A study of Homo sapiens with 2 samples.

Results

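ETV1, ETV4 and ETV5 form the PEA3 group of ETS transcription factors, and the question addressed here was where Flag-ETV4 was found around its own gene and its 2 paralogues. The 3 genes were taken by symbol from RefSeq, out of 59679 genes on the GRCh38 chromosomes, and every peak that touched the gene span or the 50 kb on either side was kept, which gave 12 of the 54389 peaks in the list. The study sequenced 1 immunoprecipitate, made with an anti-Flag antibody, beside 1 input library, both from A549, an established human non-small cell lung cancer line. In both, endogenous ETV4 had been knocked down with an shRNA (A549-shETV4, from a lentiviral vector with puromycin resistance) and ETV4 had been put back as a transfected Flag-ETV4 plasmid, so there was no library without the plasmid. The sample labels name a Sigma F1804 antibody and the methods one from CST, and whether the cells were 1 clone was not given in the sources used here. No RNA was measured in this series, so neither the knockdown nor the identity of the cells could be checked from the files. There was no replicate, so no SD and no test between conditions can be given.

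All ETS factors bind DNA through a shared domain that recognises a GGAA core, which reads TTCC on the other strand. The PEA3 group is expressed in developing epithelia, lung buds included, where it acts downstream of fibroblast growth factor receptors and of the ERK kinases. Its activity is held down by the repressor CIC and by the ubiquitin ligase COP1. ETV4 itself is often raised in lung, prostate and other carcinomas, ETV1 is known from fusion genes in prostate cancer, and ETV5 is a factor of alveolar type 2 cells, from which A549 is commonly said to derive.

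Each peak is given by its interval, its summit, the fold enrichment over the control at the summit, the −log10 q-value there, and 2 numbers that follow from the fold and the −log10 p, the pileup of fragments in the immunoprecipitate and the control level. The control level is what the peak caller expected from the input, scaled to the depth of the immunoprecipitate. Over all peaks the median fold was 9.63, the median pileup 26 fragments and the median control level 1.67, and the lowest control level the caller used was 1.28. Intervals on pileups are exact Poisson 95% confidence intervals and cover counting error only. They take the fragments as independent, which was not tested, and they are too narrow where duplicates were counted. The fold itself carries at least the relative error of its pileup.

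All 3 genes had at least 1 peak within 50 kb, as did 92.0% of the 20037 protein-coding genes. All 3 also had a peak touching the gene span, against 72.0% of protein-coding genes. ETV4 and ETV5 each had 5 peaks in the window and ETV1 had 2, against a median of 4 per protein-coding gene. Of the 12 peaks, 7 had their summit inside a member gene and 5 lay outside. The highest fold was 41.5 kb and 31.3 kb beyond the low-coordinate end, which is the 3′ end, at ETV1 and at ETV5. At ETV4 it was in the interval over the start of the gene, whose control level was raised. Without the intervals inside ETV4, in which plasmid signal is possible, the highest fold there was 22.3. That peak was 44.0 kb beyond the low-coordinate end and 83 bp from the start of DHX8. With those intervals left out the strongest peak had to lie outside the gene, so its place is no likeness to ETV1 and ETV5. A strongest peak outside the gene, as at ETV1 and ETV5, was common. The strongest summit lay more than 1 kb outside the span in 63.3% of the 18430 protein-coding genes with a peak within 50 kb.

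**Figure D1:**
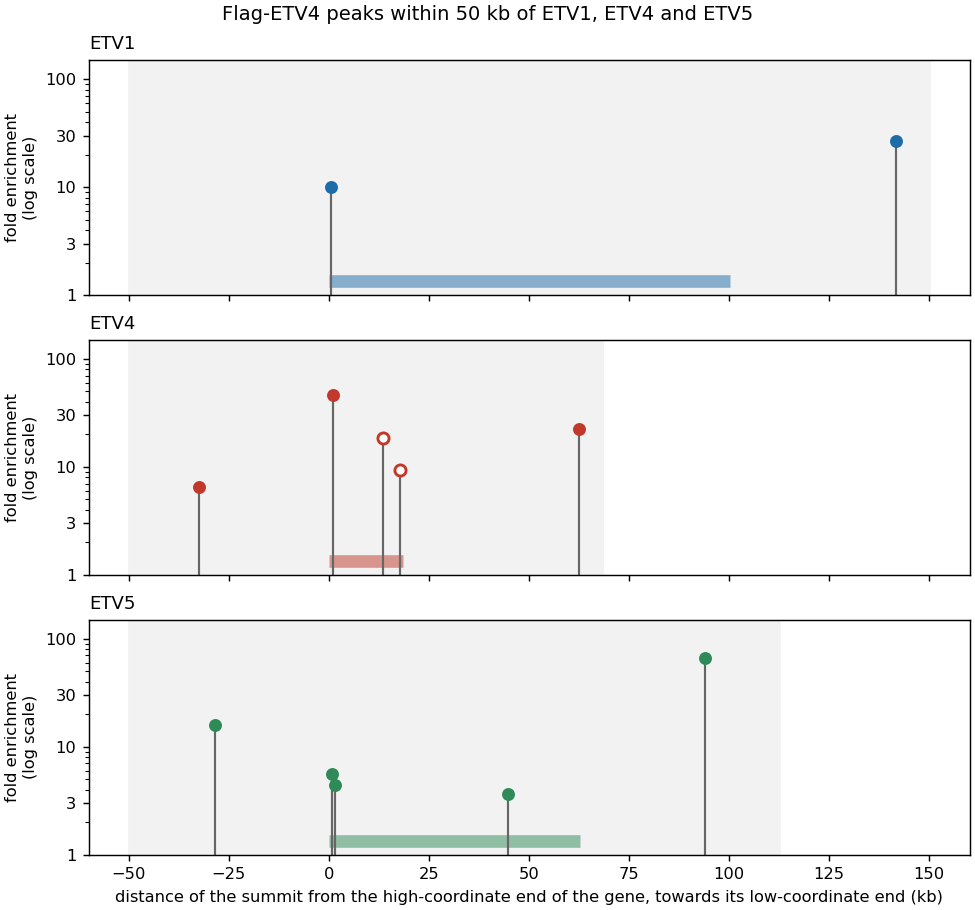
Fold enrichment (log scale) of the 12 Flag-ETV4 peaks against the distance in kb of the summit from the high-coordinate end of each gene, with the gene as a thick bar and its window of 50 kb on either side shaded. Open circles are the 2 ETV4 intervals with a control level over 20. The tallest stem at ETV1 (26.8) and at ETV5 (66.2) is outside the gene, and at ETV4 (46.8) it is near the 0 mark.

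ETV4 lies on chromosome 17 from 43527846 to 43546340, and as it is a minus-strand gene its high-coordinate end is its 5′ end. It held the summits of 3 intervals. The span of DHX8, an RNA helicase gene of the splicing machinery that starts at 43483975 on the plus strand, reaches far into ETV4 in RefSeq and so takes in the first 2 of them as well. Which exon or intron they fall in was not analysed here.

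The interval at chr17:43532667-43532950 had a fold of 18.57, a −log10 q of 6576.64 and a summit at 43532812, 13.5 kb inside the 5′ end of ETV4. Its pileup was 7664 fragments (7493 to 7838) on a control level of 412. The interval at chr17:43528512-43528748 had a fold of 9.437, a −log10 q of 1734.74 and a summit at 43528634, 788 bp inside the 3′ end. Its pileup was 2958 fragments (2852 to 3067) on a control level of 313. These were the largest pileups and the largest control levels of the whole list, while by fold they were ordinary, with the former at the 72.4th and the latter at the 49.5th percentile. Outside ETV4 no peak had a pileup over 1049 fragments or a control level over 18.6.

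In units of the input library, the control levels at these summits corresponded to 1220 and 926 input fragments. The input was therefore raised at both, and unequally with the immunoprecipitate, since the pileups differed by a factor of 2.59 and the input by a factor of 1.32. The intervals were 284 and 237 bp wide. The narrowest peak of the list was 224 bp, so that they exceeded it by 60 and 13 bp. No other tall peak was so narrow. Of the 96 peaks outside ETV4 with at least 472 fragments, the narrowest was 728 bp and the median 989 bp. Read the other way, the 6501 peaks outside ETV4 that were no wider than 284 bp had a median pileup of 11 and a highest pileup of 68 fragments.

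**Figure D2:**
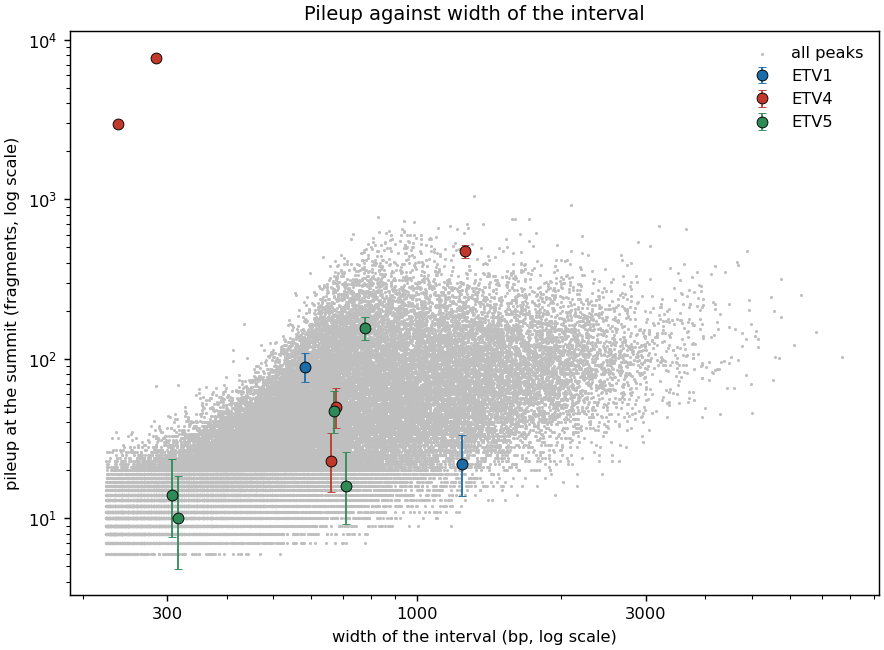
Pileup of fragments at the summit against the width of the interval in bp, both on log scales, for all peaks (grey) and for the 12 peaks of ETV1, ETV4 and ETV5 with exact Poisson 95% confidence intervals. The ETV4 intervals of 237 and 284 bp, with 2958 and 7664 fragments, stand apart from the grey cloud, and the other 10 lie within it.

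The third interval, at chr17:43545271-43546530, spanned the 5′ end of ETV4. It had a fold of 46.77, a −log10 q of 606.75 and a pileup of 472 fragments (430.4 to 517). Its fold exceeded that of 93.0% of the list, and among protein-coding genes with a peak within 1 kb of an end the value of ETV4 was at the 90.4th percentile. Its control level of 9.11, equal to 27 input fragments, was below those of the narrow intervals and still the eighth highest of the list. The 96 peaks outside ETV4 with at least as many fragments had a median control level of 2.65 and a highest one of 6.75. The shape of the interval was also unusual. It was 1260 bp wide and its summit, at 43545328, lay 57 bp from the low edge and 1202 bp from the high edge. Among the 9309 peaks at least 1000 bp wide, the summit was within 57 bp of an edge in 2, this one included, and the median distance to the nearer edge was 440 bp. The summit was thus 1012 bp inside the outermost 5′ end of ETV4 and 529 bp from the end of DHX8. The list gives 1 summit for the interval, so the level of the signal at the 5′ end itself is not known from it.

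Flag-ETV4 carries ETV4 sequence, and the plasmid was present in both libraries. The part of plasmid DNA in the 3 intervals inside ETV4 was not tested. Among the 54389 peaks, control levels above that of the third interval were found in 5 peaks outside ETV4. Besides DHX8, which contains the narrow intervals, the protein-coding genes that held the highest control levels were GPHN at 11.1, RAD51B at 10.1, ZNF790 at 9.11 and ACTN4 at 8.78, all far below 313.

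**Figure D3:**
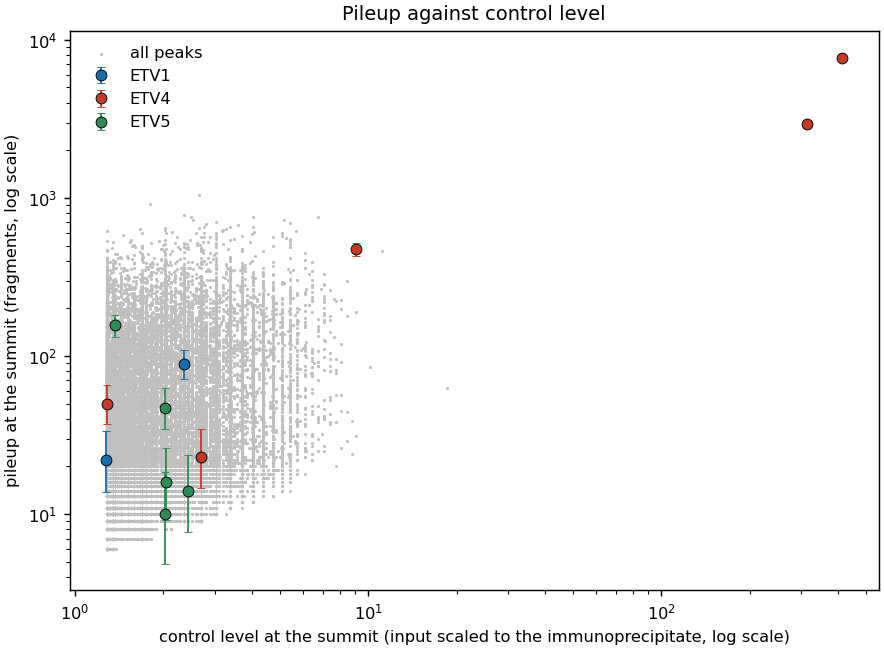
Pileup of fragments at the summit against the control level from the input, both on log scales, for all peaks (grey) and the 12 peaks of the 3 genes with exact Poisson 95% confidence intervals. The 2 narrow ETV4 intervals sit at control levels of 313 and 412, the interval at the 5′ end of ETV4 at 9.11, and the other 9 between 1.28 and 2.70.

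The 2 other peaks of the ETV4 window had low control levels. On the low side, 44.0 kb beyond the 3′ end of ETV4, the peak at chr17:43483685-43484361 had a fold of 22.28 and a −log10 q of 58.31, with 50 fragments (37.1 to 65.9) on a control level of 1.29. Its summit at 43483892 was 83 bp upstream of the start of DHX8, so by position it was the DHX8 promoter peak. On the high side, 32.5 kb upstream of ETV4, the peak at chr17:43578607-43579265 had a fold of 6.486 and a −log10 q of 12.27, with 23 fragments (14.6 to 34.5) on a control level of 2.70. It lay between genes, and the nearest gene end other than that of ETV4 was 34.1 kb away. The next peaks beyond the window were 124 kb below the gene and 83.5 kb above it.

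ETV1 lies on the minus strand of chromosome 7 from 13891229 to 13991425. Its start carried a peak at chr7:13990474-13991711 with a fold of 10.07 and a −log10 q of 18.07. The pileup was 22 fragments (13.8 to 33.3) on a control level of 1.28, the lowest the caller used, against 9.11 at the ETV4 start. The peak was broad for so low a pileup. Its width of 1238 bp ranked at the 89.0th percentile and its pileup at the 42.5th. By fold the ETV1 start was at the 27.4th percentile of the protein-coding genes with a peak within 1 kb of an end.

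RefSeq promoter windows for GRCh38.p14 were used here for ETV1, with 6 starts, and for DHX8, with 1. None was used for ETV4 and ETV5. The 250 bases upstream of 3 starts are shown because they are the sequence under the peaks at the ETV1 and DHX8 starts. All are written 5′ to 3′ in the direction of the gene, with GGAA and its reverse complement TTCC in capitals. The former ETV1 window precedes the outermost start, at chr7:13991426-13991675, and the latter precedes an inner start and contains the summit, at chr7:13990703-13990952. The DHX8 window is chr17:43483725-43483974 on the plus strand.
ETV1 outermost start: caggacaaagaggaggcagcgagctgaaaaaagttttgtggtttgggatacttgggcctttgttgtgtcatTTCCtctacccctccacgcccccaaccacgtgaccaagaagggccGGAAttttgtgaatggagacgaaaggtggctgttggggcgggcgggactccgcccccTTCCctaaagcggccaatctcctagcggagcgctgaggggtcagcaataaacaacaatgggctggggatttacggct
ETV1 inner start: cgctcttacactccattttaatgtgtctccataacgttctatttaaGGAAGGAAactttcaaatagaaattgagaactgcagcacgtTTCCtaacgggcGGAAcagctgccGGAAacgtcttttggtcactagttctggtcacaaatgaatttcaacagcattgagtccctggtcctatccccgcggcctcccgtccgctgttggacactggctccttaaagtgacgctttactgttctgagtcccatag
DHX8 start: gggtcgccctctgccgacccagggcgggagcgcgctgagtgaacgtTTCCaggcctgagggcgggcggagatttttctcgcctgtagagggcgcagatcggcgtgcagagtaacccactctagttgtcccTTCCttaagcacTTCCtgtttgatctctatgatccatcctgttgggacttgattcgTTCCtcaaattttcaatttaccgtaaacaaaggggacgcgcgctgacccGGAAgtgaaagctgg

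The summit of the ETV1 peak, at 13990833, was 592 bp downstream of the outermost start and 131 bp upstream of the inner start at 13990702. In the inner window GGAA occurred 5 times, and 1 of these, at position 112 of the printed sequence, was part of CCGGAA. That match was 5 bp from the summit, and the GGAA at position 100 was 17 bp from it. The window of another inner start, at 13990706, covers nearly the same bases and the same matches. In the outermost window CCGGAA also occurred once, 723 bp from the summit. The longer form CCGGAAGT was in none of the 6 ETV1 windows, and TGANTCA, the AP-1 site, was in none of them either. The DHX8 window held GGAA 5 times, the nearest 19 bp from its summit, and CCGGAAGT once, 66 bp from that summit.

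For scale, the 250 bases upstream of 35116 RefSeq starts were searched in the same way, on both strands, with each shorter motif counted also inside a longer one. GGAA was present in 92.7% of them, CCGGAA in 14.5%, CCGGAAGT in 3.42% and TGANTCA in 6.57%. Of the 3892 windows that contained a peak summit, as the inner ETV1 window did, 41.6% held CCGGAA and 13.7% held CCGGAAGT, against 11.2% and 2.14% of the windows without a summit. TGANTCA was in 5.14% of the windows with a summit and in 6.75% of those without. Many windows overlap, since genes have several starts, so these shares are a description.

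The second ETV1 peak, at chr7:13849462-13850044, lay 41.5 kb beyond the 3′ end and 142 kb from the 5′ end of the gene. It had a fold of 26.76 and a −log10 q of 102.48, with 89 fragments (71.5 to 109.5) on a control level of 2.36, and its interval was 583 bp wide. The confidence intervals of the pileups at this peak and at the ETV1 start did not overlap. The nearest gene end other than that of ETV1 was the pseudogene RPL26P21, 22.1 kb away. Between the 2 peaks, 140 kb of sequence with nearly all of the gene body had no called interval. The surroundings were just as empty, as the next peaks were 524 kb below and 672 kb above the gene. ETV1 thus stood with its 2 peaks in a stretch of 1.3 Mb, against 0.226 Mb between the corresponding outer peaks at ETV4 and 0.201 Mb at ETV5.

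ETV5 lies on chromosome 3 from 186046314 to 186109089, also on the minus strand. It had 3 peaks inside the gene, all of them weak. The one nearest to the 5′ end, at chr3:186108183-186108890, had a fold of 5.578 and a −log10 q of 7.90, with 16 fragments (9.15 to 26.0) on a control level of 2.05. Its summit was 744 bp inside the outermost start. By fold the ETV5 start was at the 10.3th percentile of the protein-coding genes with a peak within 1 kb of an end. A second interval followed 372 bp further into the gene, at chr3:186107504-186107810, with a fold of 4.377, a −log10 q of 5.21 and 14 fragments (7.65 to 23.5). The third, at chr3:186064269-186064584 and 44.7 kb into the gene, had a fold of 3.636, a −log10 q of 3.00 and 10 fragments (4.80 to 18.4), which was a higher fold than in only 3.77% of the list. Their pileups cannot be told apart at this depth, as all 3 confidence intervals overlapped.

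The flanks of ETV5 held stronger peaks. At chr3:186014642-186015417, 31.3 kb beyond the 3′ end, the fold was 66.17 and the −log10 q 253.27, with 156 fragments (132 to 182) on a control level of 1.37. This was the highest fold of the 12 peaks and was at the 96.9th percentile of the list. It lay between genes, with the nearest end other than that of ETV5 belonging to the pseudogene NMRAL2P, 34.1 kb away. At chr3:186137082-186137750, 28.4 kb upstream of ETV5 and inside the lncRNA gene LOC105374257, the fold was 15.87 and the −log10 q 44.56, with 47 fragments (34.5 to 62.5) on a control level of 2.03. The confidence intervals of both pileups lay above those of the 3 peaks inside ETV5. Control levels at the 5 ETV5 peaks ran from 1.37 to 2.43, below the 2.70 reached at the ETV4 peak upstream of the gene. Just outside the window were a peak 61.6 kb below the gene, with a fold of 46.0, and one 76.4 kb above it, with a fold of 3.94.

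At the summits of the intervals nearest to the 5′ ends, ETV4 had 472 fragments on a control level of 9.11, ETV1 22 on 1.28 and ETV5 16 on 2.05. These summits were 1012, 592 and 744 bp inside the genes, so they are not levels at the start sites. The confidence intervals of ETV1 and ETV5 overlapped, so their order is not shown at this depth. That of ETV4 lay above both, in an interval for which the part of plasmid DNA was not tested. With control levels taken off, the pileups were 463, 20.7 and 14.0 fragments. A peak within 1 kb of an end was thus present at all 3 genes and at 62.1% of protein-coding genes, and 2 of them, ETV4 and ETV1, had one with a fold over 10, against 45.2%. The ETV1 value of 10.07 lies just above that limit, within its counting error.

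The other 25 human ETS genes give a family background. A peak within 1 kb of a gene end was found at 17 of them (68.0%, Wilson 95% confidence interval 48.4% to 82.8%), close to the 62.1% of all protein-coding genes, and 13 had one with a fold over 10 (52.0%, 33.5% to 70.0%), against 45.2%. All 25 had a peak within 50 kb. The highest folds at a gene end were at ERF, which encodes an ETS repressor regulated by ERK, with 102 (395 fragments, 357 to 436), at ETV3, a repressor related to ERF, with 74.9 (233 fragments, 204 to 265), and at ETV6, a repressor known from leukaemia fusions, with 65.7 (244 fragments, 214 to 277). The confidence intervals of the ETV3 and ETV6 pileups overlapped, so their order is not shown. By fold ETV4 was sixth, ETV1 fifteenth and ETV5 twentieth of the 28, and by pileup ETV4, with its raised control level, was the highest. The folds just above ETV4 and ETV5 differed little from theirs, with 48.9 at ETS2 and 47.7 at ELF2 against 46.8 at ETV4, and 5.64 at ETV2 against 5.58 at ETV5. The next below ETV4 was GABPA at 35.3. Next to ETV1, at 10.1, were ERG at 12.3 and FEV at 7.44, with pileup intervals that overlapped that of ETV1. These places are therefore not resolved at this depth. Below ETV5 were only the 8 ETS genes with no peak within 1 kb of an end, among them the epithelial factors EHF, ELF3, ELF5 and SPDEF and the blood factors SPI1 and SPIC, with ETV7 and FLI1. These 8 were named after their values had been seen. The sixth place of ETV4 rests on the interval with the raised control level.

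**Figure D4:**
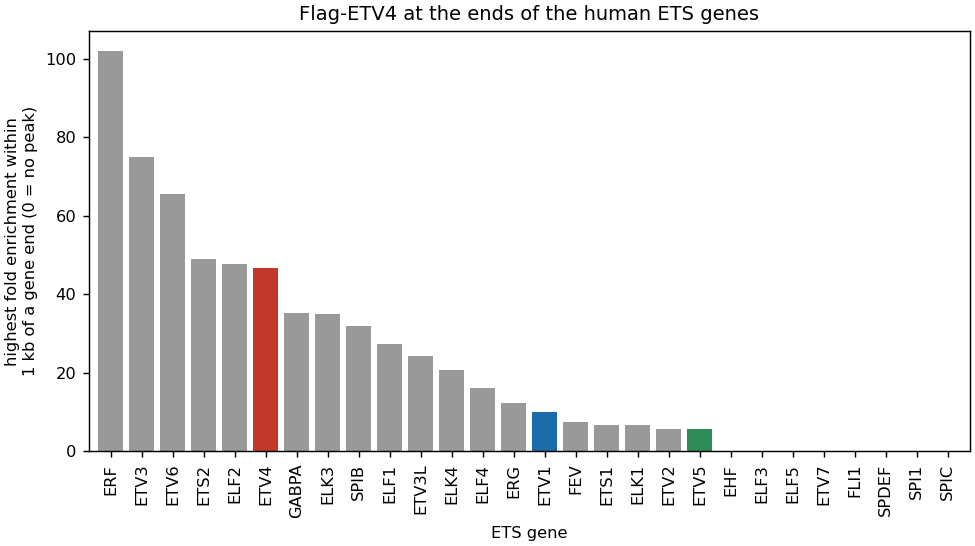
Highest fold enrichment of a Flag-ETV4 peak within 1 kb of either end of each of the 28 human ETS genes, with ETV4 in red, ETV1 in blue and ETV5 in green, and 0 where no peak was listed. ETV4 stands at 46.8, ETV1 at 10.1 and ETV5 at 5.58, and ERF is the highest at 102.

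By number of peaks the members were not exceptional. The count of 5 at ETV4 and at ETV5 was above that of 51.4% of protein-coding genes, and 9.81% of them had the same count. The count of 2 at ETV1 was above that of 16.6% of protein-coding genes, with 11.3% at the same count. Since ETV1 spans 100.2 kb, ETV5 62.8 kb and ETV4 18.5 kb, the windows differed in length. Per 100 kb of window there were 0.999 peaks at ETV1, 3.07 at ETV5 and 4.22 at ETV4, against a median of 2.89. The values of ETV4 count its 3 inner intervals, in which plasmid signal is possible. Without the 2 narrow intervals ETV4 had 3 peaks, a count above that of 27.9% of protein-coding genes. Without any interval inside the gene it had 2, as many as ETV1. The number per 100 kb was not computed without them.

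**Figure D5:**
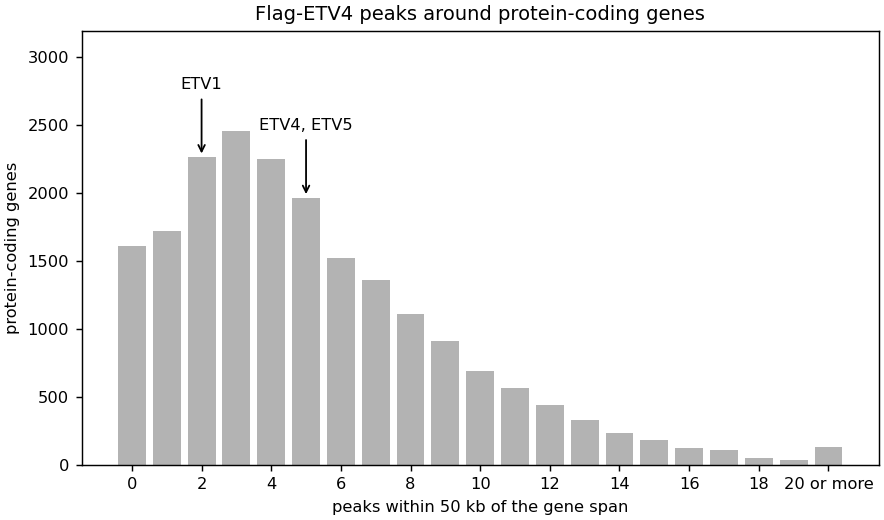
Number of protein-coding genes (vertical axis) by how many Flag-ETV4 peaks lie within 50 kb of the gene span (horizontal axis). ETV1, with 2 peaks, is on the low side of the distribution, and ETV4 and ETV5, with 5 peaks each, are just above the median of 4. The count of ETV4 includes the 3 intervals inside the gene, in which plasmid signal is possible.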

How the data were processed

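ChIP-seq peaks of 1 anti-Flag library were used, and the input enters only through the values of each peak. The authors deposited a narrowPeak list with the fold enrichment (a ratio) and the −log10 p-value and −log10 q-value at each summit, and a display score that was not used. The submitters' processing notes name Bowtie2 2.4.1, SAMtools, MACS2 2.2.7.1, deepTools 3.5.0 and hg38; the caller's settings and the handling of duplicates are not given in the sources used here. The study states a fold change cut of 2 for its peaks, and the lowest fold in the deposited list was 2.34. Pileups depend on whether duplicate reads were kept. Coordinates are 1-based on hg38.

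Pileup k and control level c were solved from fold = (k + 1) / (c + 1) and the Poisson probability of a pileup above k. Solved pileups came within 0.00914 of a whole number throughout the deposited list. Of the control levels, 51.3% fell on steps of 0.338, taken as 1 input fragment at the summit, and 60.6% of the others on steps of 0.0758, taken as a 1 kb window, which gives fragments of 225 bp. The rest fell on neither step. The solver was tested on fold and p rebuilt from its own solutions with the same formula. That checks the solving step and not the formula. The overlap search was compared with a direct search in random windows. Gene spans came from RefSeq (GRCh38.p14), which here gave no exons and no strand. Strand came from the promoter table for ETV1 and DHX8, and for ETV4 and ETV5 it is background knowledge. Promoter bases within 50 of a start on the transcribed side were not read.

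Genes named by rule are the 3 members, the gene ends nearest to peaks outside them, the 3 genes of each fixed list with the highest fold within 1 kb of an end, and the 5 other protein-coding genes with the highest control level. Other named genes were chosen after their values were seen, or stand next to a member in order. The members and lists were chosen with earlier results of these data known. Alternatives covered the window, summits in place of intervals, limits on fold and q, the background and the reading of fold and p. Scripts ran under Python 3.11.15 with pandas 2.3.3, scipy 1.17.1, numpy 2.4.6 and, for the plots, matplotlib 3.10.9.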

Additional observations from a re-analysis of the deposited data

How the results depend on the processing

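Each result was recomputed under the alternatives that apply to it, which gave 97 values. Counts were held to 1.5 times the value given, folds and control levels to their counting error, and percentiles to the narrow 95% Wilson interval over the 20037 genes. By these limits 56 values stayed and 41 did not, small shifts of percentiles among them. Some of the 56 could not have moved. A limit on fold cannot lower a highest fold that is above it. Leaving out intervals inside ETV4 cannot touch ETV1 or ETV5. The tally is therefore no measure of stability. Windows of 10 kb and the gene span alone left 1 peak at ETV1, 3 at ETV4 and 3 at ETV5, and lowered the highest fold at ETV1 to 10.1 and at ETV5 to 5.58, since the stronger peaks of both lie outside the gene. At ETV5, 3 peaks had a fold over 5, 2 a fold over 10 and 2 a −log10 q over 10. At ETV4, 3 peaks had a fold over 10, and 3 were left without the intervals of control level over 20. Without any interval inside ETV4, an alternative chosen after seeing the data, 2 peaks were left and the highest fold was 22.3. The percentile of ETV1 by peak count was 18.4 with 10 kb, 8.62 with 100 kb, 28.0 with the span alone, 20.9 and 36.6 with folds over 5 and 10, 26.4 with a −log10 q over 10, 35.2 among all RefSeq genes and 19.7 per 100 kb of window. In the same order the percentile of ETV4 was 63.8, 36.0, 81.7, 60.3, 55.3, 68.4, 69.9 and 65.9, and that of ETV5 was 63.8, 43.6, 81.7, 34.8, 36.6, 26.4, 69.9 and 53.0. These percentiles are therefore loose descriptions. Those of ETV4 all count intervals inside the gene, in which plasmid signal is possible. With 10 kb and with the span alone, the 3 intervals inside ETV4 were the only peaks it had. The folds at the 5′ ends did not move with windows of 3 or 5 kb, and with a fold over 10 required ETV5 had no peak there. The control levels inside ETV4 stayed within their limits under every alternative run on them. The list counts did so too, but with 25 and 20 genes listed they could not pass the upper limit. They did depend on the definition. The ETS count was 13 with a fold over 10 and 25 within 50 kb, and that of the PEA3 regulators 16 and 20. The corresponding shares of all protein-coding genes were 45.2% and 92.0%. No paired analysis was possible because there is 1 immunoprecipitate and the labels carry no replicate numbers. At a median pileup of 26 fragments, the depth does not resolve differences among the weak peaks inside ETV5.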

Other observations

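Among 20 genes known to act on the PEA3 group, as kinases, receptors, repressors or degradation factors, a peak lay within 1 kb of either end of 19 (Wilson 95% confidence interval of the share, 76.4% to 99.1%), and in 16 its fold was over 10 (58.4% to 91.9%). The corresponding shares of all protein-coding genes were 62.1% and 45.2%. The 3 highest were DDB1, a subunit of the ubiquitin ligase through which COP1 acts, with a fold of 88.6 and 297 fragments (264 to 333), DUSP6, a phosphatase of ERK, with 61.1 and 287 fragments (255 to 322), and SPRY4, a feedback inhibitor of receptor signalling, with 58.1 and 144 fragments (121 to 169.5). The list was chosen with earlier results of these data known, so the count is a description. MAPK3, which encodes the ERK1 kinase, was the gene with no peak within 1 kb of an end, although a peak with a fold of 64.3 lay within 50 kb of it. The repressor CIC had a fold of 5.29 at its ends, with 40 fragments (28.6 to 54.5) on a control level of 6.75, and COP1 a fold of 27.8 with 83 fragments (66.1 to 103). Within 50 kb of CIC there were 17 peaks, the highest with a fold of 102, the value also found at the ends of ERF. CIC, COP1 and MAPK3 were named after their values had been seen.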
